A study of Homo sapiens with 18 samples.

Results

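The genes described here were 32 human genes of mismatch repair (5 genes), base excision repair (18 genes) and DNA end joining (9 genes). They were taken as the rows of the deposited tables whose gene name equals a member's symbol. All 32 were found among 26249 genes, each with a value in all 18 libraries. The libraries were 3′ mRNA libraries (QuantSeq) from XG1 and AMO1, given in the labels as multiple myeloma lines. Each line was kept for 24 h in 100 nM or 1000 nM YKL-5-124, a covalent inhibitor of the kinase CDK7, or in DMSO, the solvent control. There were 3 replicates in each of the 6 groups, and all groups were grown in RPMI medium with fetal bovine serum. The labels number the replicates without saying that they came from separate cultures, and a p-value here therefore reflects no more than the scatter of these samples.

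Mismatch repair corrects bases that replication has paired wrongly: a MutS dimer finds the mispair, a MutL dimer nicks the new strand, and the strand is cut back and made again. Base excision repair removes single damaged bases. A glycosylase cuts out the base, an endonuclease opens the backbone, a polymerase fills the gap and a ligase seals it, with poly(ADP-ribose) polymerases marking the open break. End joining reconnects the ends of a double-strand break: the Ku dimer holds the ends, a kinase and a nuclease prepare them and a ligase complex joins them, while polymerase theta joins ends by short stretches of matching sequence. B-lineage cells also use uracil removal, mismatch recognition and end joining when they rearrange and mutate their antibody genes.

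The deposited FPKM appeared to be scaled to the added spike-in RNA, and on this deposited scale the summed signal of all genes was 81.0% of DMSO at 100 nM and 73.3% at 1000 nM in XG1, and 62.2% and 39.6% in AMO1. The median gene tested at 1000 nM changed by log2 −0.15 in XG1 and by −0.77 in AMO1, so each change below is also given on a relative scale, after division by median-ratio size factors. A value on the deposited scale cannot tell fewer cells in a well from less RNA per cell. The plasma cell markers fixed for the label check summed to 91.3 to 144 FPKM in the DMSO libraries labelled XG1 (5 of 9 genes at 1 FPKM or more) and to 8206 to 9217 FPKM in those of AMO1 (9 of 9). Erythroid markers summed to 4825 to 5237 FPKM in the DMSO libraries labelled XG1, with 12 of 12 genes at a mean of 1 FPKM or more, and to 109 to 124 FPKM in those of AMO1, with 3 of 12. IRF4 and PRDM1, which define plasma cells, averaged 0.533 and 0.362 FPKM in XG1 DMSO libraries and 77.5 and 16.1 FPKM in those of AMO1. XBP1 and SDC1 averaged 82.6 and 24.2 FPKM in XG1 DMSO libraries and 214 and 5067 FPKM in those of AMO1. The erythroid gene HBE1 went the other way, at 67.2 FPKM in XG1 and 106 FPKM in AMO1. Myeloid markers summed to 121 to 147 FPKM in XG1 DMSO libraries and to 0.622 to 1.41 FPKM in those of AMO1. The libraries labelled XG1 thus went against the label of a plasma cell tumour, and the part of this in the differences between the lines was not tested. At 1000 nM in AMO1, replicate 2 had the lowest total signal (431965 FPKM, against 683618 and 686266 FPKM) and the lowest value of its group for 24 of the 32 genes. In XG1, 100 nM replicate 2 agreed least with its group (mean Spearman correlation 0.938, against 0.943 to 0.973 for the other 17 libraries).

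Changes were tested on log2(FPKM + 1) with limma, for genes that reached 1 FPKM in 3 or more of the libraries fitted, and are given ± SE. A gene was called where its p, adjusted over all genes of the fit by the Benjamini-Hochberg method, was under 0.05. In each line 31 of the 32 genes were tested. NEIL1 was not tested in AMO1 and PMS2 was not tested in XG1, because no library there reached 1 FPKM. POLQ passed in AMO1 only through its DMSO libraries, so it had to be lower after treatment. NEIL3 in AMO1 and POLQ in XG1 also needed their DMSO libraries to pass, which favours a fall. In both cases 1 library at 100 nM and none at 1000 nM reached 1 FPKM. XRCC1 and PMS2 in AMO1 passed with just 3 libraries each, 2 and 1 of them in DMSO and none at 1000 nM. They too needed DMSO libraries to pass, which favours a fall at 1000 nM. Because FPKM is a value per length while these libraries read transcript ends, levels are compared between groups and not between genes.

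Promoters of 27 of the 32 genes were in the RefSeq table used (GRCh38.p14, 300 bases around each start site). The 5 shown here belong to the genes that the comparisons below turn on: MSH6 and MSH3, which lead the MutS dimers for small and large mispairs, UNG and OGG1, which remove uracil and oxidised guanine, and XRCC4, the scaffold of the end-joining ligase. Capitals mark 2 motifs, searched on both strands, namely CCAAT or its reverse complement and any of 4 words like an E2F site (TTTCCCGC, TTTCGCGC, TTTGCCGC and TTTGGCGC). In the MSH3 promoter 2 of these words overlap, 1 on each strand. MSH6 (chr2:47782895-47783194, plus strand), MSH3 (chr5:80654402-80654701, plus strand), UNG (chr12:109097922-109098221, plus strand, the second of 2 start sites listed), OGG1 (chr3:9749702-9750001, plus strand) and XRCC4 (chr5:83077297-83077596, plus strand) read 5′ to 3′:
MSH6: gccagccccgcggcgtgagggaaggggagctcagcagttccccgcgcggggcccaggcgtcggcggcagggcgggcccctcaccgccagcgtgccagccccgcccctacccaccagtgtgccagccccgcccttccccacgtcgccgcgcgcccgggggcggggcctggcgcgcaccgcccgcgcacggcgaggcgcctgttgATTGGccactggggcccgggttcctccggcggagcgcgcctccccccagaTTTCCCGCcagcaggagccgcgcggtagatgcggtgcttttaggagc
MSH3: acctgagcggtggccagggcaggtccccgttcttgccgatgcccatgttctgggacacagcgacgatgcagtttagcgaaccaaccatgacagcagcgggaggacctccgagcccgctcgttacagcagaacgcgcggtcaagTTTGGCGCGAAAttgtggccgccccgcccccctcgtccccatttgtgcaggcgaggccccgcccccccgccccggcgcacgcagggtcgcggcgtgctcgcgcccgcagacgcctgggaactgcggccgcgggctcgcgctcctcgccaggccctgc
UNG: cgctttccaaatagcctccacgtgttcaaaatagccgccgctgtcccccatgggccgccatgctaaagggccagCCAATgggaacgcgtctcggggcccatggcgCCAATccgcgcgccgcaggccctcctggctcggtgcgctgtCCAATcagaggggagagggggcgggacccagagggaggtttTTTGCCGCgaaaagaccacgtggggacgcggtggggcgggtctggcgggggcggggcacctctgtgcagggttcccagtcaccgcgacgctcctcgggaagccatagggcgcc
OGG1: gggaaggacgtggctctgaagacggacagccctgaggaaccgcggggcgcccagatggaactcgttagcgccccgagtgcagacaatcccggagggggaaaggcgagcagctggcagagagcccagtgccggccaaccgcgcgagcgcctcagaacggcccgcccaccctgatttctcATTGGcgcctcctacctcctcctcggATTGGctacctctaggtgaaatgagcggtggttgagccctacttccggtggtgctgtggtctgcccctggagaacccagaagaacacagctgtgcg
XRCC4: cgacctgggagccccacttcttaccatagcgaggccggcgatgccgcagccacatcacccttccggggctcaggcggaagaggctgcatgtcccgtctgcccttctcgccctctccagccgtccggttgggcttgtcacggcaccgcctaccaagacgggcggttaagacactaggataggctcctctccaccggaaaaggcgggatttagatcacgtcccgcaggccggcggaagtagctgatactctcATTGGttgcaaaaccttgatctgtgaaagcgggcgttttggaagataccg

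An E2F-like word was in a promoter of 5 genes (MSH3, MSH6, PMS2, UNG and XRCC6), that is 3 of the 5 mismatch repair genes, 1 of 15 base excision genes and 1 of 7 end-joining genes with a promoter listed. Such a word was held by 3.31% of all 35116 promoters listed. Of the 44 promoters listed for the 27 genes, 6 (13.6%) held one. Among the 6 are the 2 overlapping promoters of PMS2, which hold the same word. Repeated start sites were removed for the 27 genes and not for all promoters, so the shares here and below are not strictly alike. CCAAT was in a promoter of 19 of the 27 genes, in 24 of the 44 promoters (54.5%) and in 34.6% of all promoters. The word TTTGAA, also searched on both strands, was in 5 of the 44 promoters (11.4%) and in 15.2% of all promoters. Of the 4 start sites listed for MSH6 only the one shown held an E2F-like word or CCAAT. A match describes letters only, and it shows no binding.

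In the libraries labelled XG1, 13 of 31 repair genes were called at 1000 nM. In AMO1 26 of 31 were called, where 65.7% of all genes were called lower and 2.51% higher. The shares of all genes called differed between the lines, so these 2 counts do not compare the repair genes directly. In XG1 12 of 31 tested genes fell and 1, OGG1, rose, where 13.2% of all genes were called lower and 3.69% higher. The 12 hold POLQ, which needed its DMSO libraries to pass the filter. The median change was log2 −0.47, against −0.15 for all genes. End joining had 5 of 9 genes lower (median −0.65), base excision repair 6 of 18 lower and 1 higher (median −0.36), and mismatch repair 1 of 4 lower (median −0.38). On the relative scale 10 were lower and 1 higher, where 10.2% and 9.41% of all genes were called, and no mismatch repair gene was among them. The number of calls in both directions was 8 without DMSO replicate 1 or without 1000 nM replicate 3, and 7 without DMSO replicate 3 or without 1000 nM replicate 1. At 100 nM 8 of the 31 fell and none rose, where 10% and 2.48% of all genes were called, and 4 were called without DMSO replicate 3 and 6 without 100 nM replicate 2. Relative to the median gene, 6 of the 31 were lower and 1, OGG1, higher, where 7.31% and 7.1% of all genes were called. These comparisons share the XG1 DMSO libraries.

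In AMO1 at 1000 nM, most base excision and end-joining genes were lower than in DMSO, with medians below that of all genes, while the mismatch repair median lay above it. Of the 31 genes tested, 26 fell and none rose, where 65.7% of all tested genes were called lower and 2.51% higher. The median change was log2 −1.33 for the repair genes and −0.77 for all genes. The routes differed in their counts. Base excision repair had 16 of 17 tested genes lower (median −1.42), end joining 8 of 9 (median −1.38), and mismatch repair 2 of 5 (median −0.51). These counts hold POLQ, whose fall the filter fixed: without it, a choice made after seeing the data, 25 of 30 genes were lower (median −1.33), and 7 of 8 in end joining (median −1.24). The 25 still hold NEIL3, which needed its DMSO libraries to pass the filter. On the relative scale 17 of the 31 were lower and 1 higher, where 24.5% and 23.5% of all genes were called, and the median was −0.45. These were 11 base excision genes, 5 of end joining and 1 of mismatch repair, with LIG4 the 1 gene higher, and 16 of 30 lower without POLQ. Without 1000 nM replicate 2, on the deposited scale, 25 genes were called.

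At 100 nM in AMO1, 21 of 31 genes fell and none rose, where 29.5% of all genes were called lower and 2.73% higher. The median change was log2 −0.70 for the repair genes and −0.35 for all genes. Base excision repair had 13 of 17 lower, end joining 6 of 9 and mismatch repair 2 of 5. Without POLQ 20 of 30 were lower, and 5 of 8 in end joining. The 20 still hold NEIL3, which needed its DMSO libraries to pass the filter. Both doses were set against the same DMSO libraries. After size-factor scaling 11 of the 31 were lower and none higher, where 17% and 14% of all genes were called. Leaving out DMSO replicate 2 gave 9 genes called and leaving out DMSO replicate 1 gave 13.

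**Figure D1:**
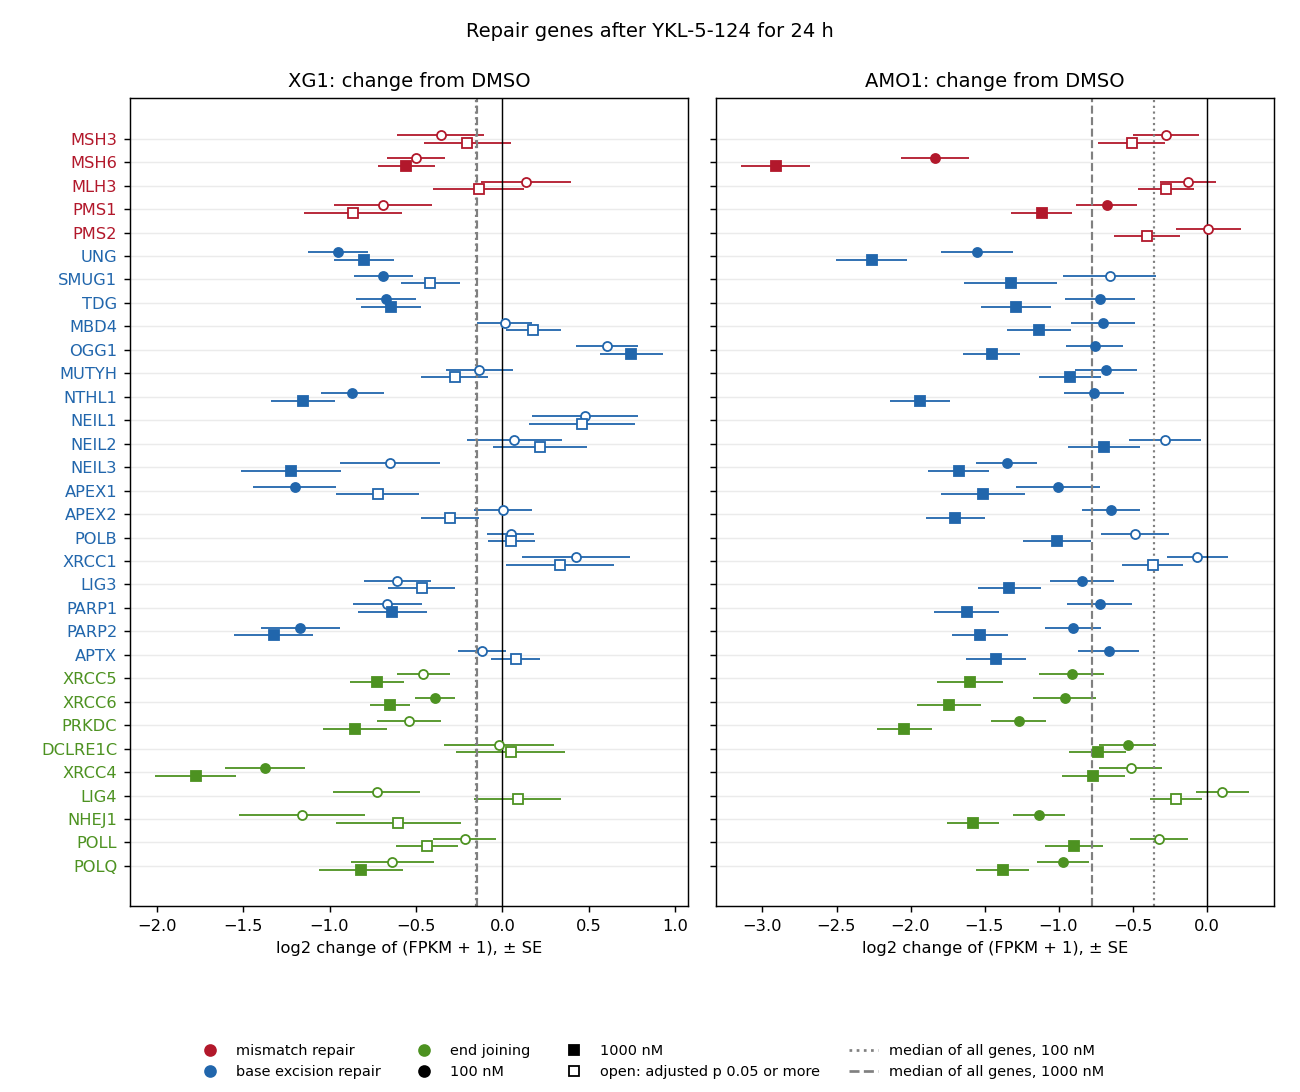
Log2 change of (FPKM + 1) from DMSO ± SE (horizontal axis) for each repair gene (vertical axis, coloured by route) in XG1 (left) and AMO1 (right), at 100 nM (circles) and 1000 nM (squares). Filled symbols passed the threshold, and the dashed and dotted lines mark the median of all genes at 1000 nM and at 100 nM. In AMO1 MSH6 lies farthest left at log2 −2.91, and in XG1 OGG1 is the 1 filled symbol to the right of 0.

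MSH6, the MutS subunit that with its partner reads single mispairs and small loops, had the largest fall of the 31 genes in AMO1 and a smaller one in XG1. In XG1 it measured 35.1, 25.2 and 38.3 FPKM in DMSO, 22.2, 22.5 and 23.3 FPKM at 100 nM and 22.5, 21.6 and 21.1 FPKM at 1000 nM. All 3 libraries at 1000 nM lay below those in DMSO, with a change of log2 −0.56 ± 0.17 (adjusted p = 0.0423, relative scale −0.38 with adjusted p = 0.109), and the call was lost when any of 5 single libraries was left out, with adjusted p up to 0.165. In AMO1 it measured 22.0, 24.8 and 21.7 FPKM in DMSO, 4.58, 5.61 and 7.02 FPKM at 100 nM and 2.61, 1.22 and 2.93 FPKM at 1000 nM. The 3 AMO1 groups did not overlap, and the level was lower at each higher dose. The AMO1 change was −1.84 ± 0.23 (adjusted p = 6.87e-05, relative scale −1.42) at 100 nM and −2.91 ± 0.23 (adjusted p = 2.51e-07, relative scale −2.12) at 1000 nM. The last exon of MSH6 overlaps FBXO11 on the other strand, whose mean was 4.40 FPKM at 1000 nM and 7.15 FPKM in DMSO in XG1, and 3.19 and 5.74 FPKM in AMO1 (AMO1 log2 change −0.69, relative scale 0.10). The sources used here do not say whether reads were counted by strand, and without that the reads of such pairs cannot be told apart.

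MSH3, which forms the MutS dimer for larger loops and was chosen for description after its values were seen, did not pass at either dose in either line. In XG1 it had 4.12, 4.97 and 5.86 FPKM at 1000 nM, against 7.11, 5.48 and 5.08 FPKM in DMSO, with overlapping groups and a change of −0.20 ± 0.25 (adjusted p = 0.636, relative scale −0.048). In AMO1 it had 2.28, 1.31 and 1.81 FPKM at 1000 nM, against 2.34, 3.88 and 2.74 FPKM in DMSO, all below DMSO but with a change of −0.51 ± 0.23 (adjusted p = 0.0592, relative scale 0.16). PMS1 is a MutL protein of less settled role. In XG1 PMS1 had 7.83, 7.45 and 9.42 FPKM at 1000 nM, against 15.5, 16 and 15.6 FPKM in DMSO, without overlap but with a change of −0.86 ± 0.28 (adjusted p = 0.0599, relative scale −0.69). In AMO1 it had 2.93, 1.90 and 3.21 FPKM at 1000 nM, against 6.92, 7.80 and 5.98 FPKM in DMSO, also without overlap, and it was called (−1.11 ± 0.21, adjusted p = 0.00035, relative scale −0.34 with adjusted p = 0.0592). MLH3, a MutL protein best known from meiosis, lay between 0.730 and 2.34 FPKM over all 18 libraries and was not called in any comparison. PMS2, the subunit that carries the nicking activity of the main MutL dimer, lay between 0.102 and 1.22 FPKM. Near-identical gene copies can take PMS2 reads, and its values are uncertain.

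**Figure D2:**
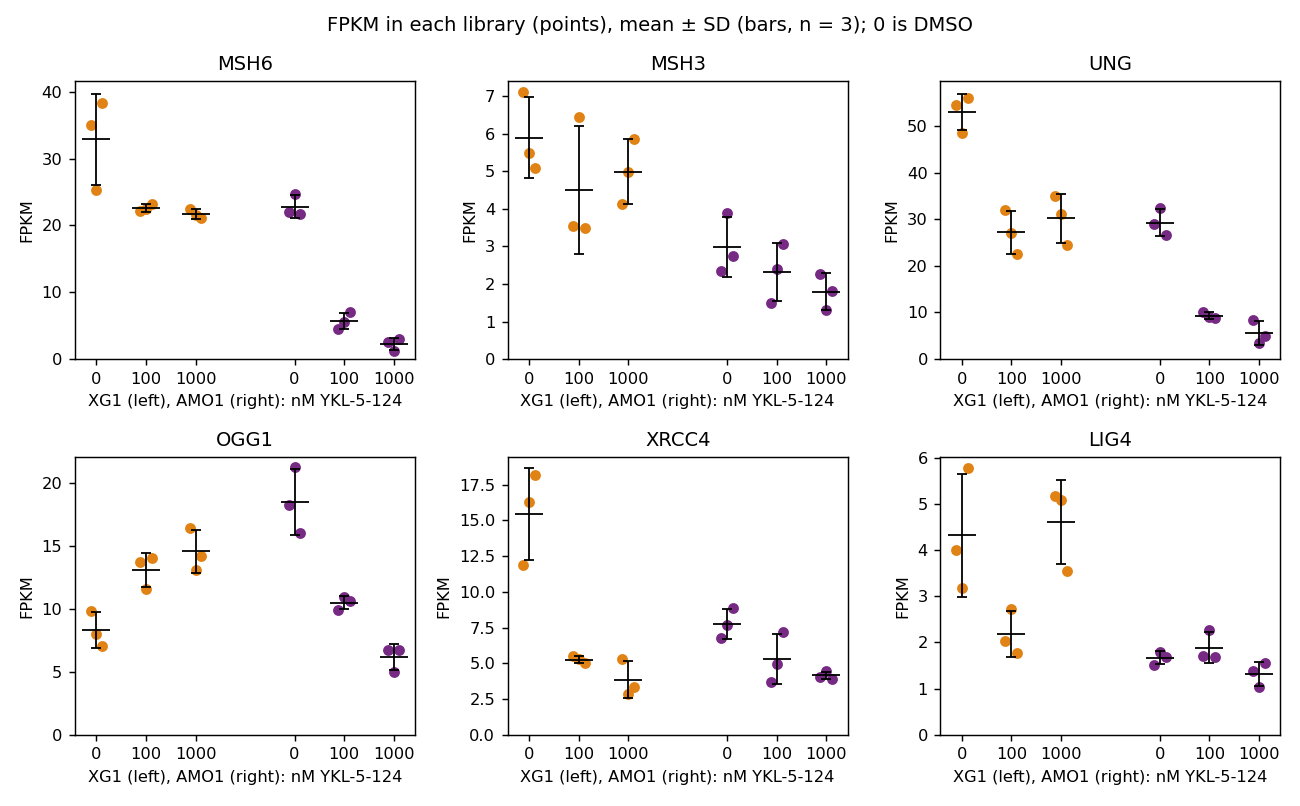
FPKM (vertical axes, from 0) of 6 repair genes in each library (points) by dose in nM (horizontal axes, 0 is DMSO), with XG1 left and AMO1 right in each panel and bars for the mean ± SD of 3 replicates. MSH6 and UNG are lower than in DMSO at both doses in AMO1, OGG1 runs in opposite directions in the lines, and XRCC4 is lower in XG1 while LIG4 is not called in either line on this scale.

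Among the glycosylases of base excision repair, UNG, the main enzyme for uracil, fell in both lines and had the largest fall in AMO1. In XG1 it measured 54.6, 48.6 and 56.0 FPKM in DMSO, 31.9, 27.0 and 22.6 FPKM at 100 nM and 35.1, 31.1 and 24.6 FPKM at 1000 nM. In AMO1 it measured 28.9, 32.3 and 26.7 FPKM in DMSO, 10.1, 9.11 and 8.73 FPKM at 100 nM and 8.33, 3.49 and 4.97 FPKM at 1000 nM. Every treated library lay below every DMSO library of its line. The change at 1000 nM was −0.80 ± 0.17 (adjusted p = 0.00988, relative scale −0.62) in XG1 and −2.26 ± 0.24 (adjusted p = 3.51e-06, relative scale −1.38) in AMO1. At 100 nM it was −0.95 ± 0.17 (adjusted p = 0.00664, relative scale −0.77) in XG1 and −1.55 ± 0.24 (adjusted p = 0.00038, relative scale −1.13) in AMO1.

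OGG1, which removes oxidised guanine, moved in opposite directions in the lines. In XG1 it measured 9.83, 8.01 and 7.07 FPKM in DMSO, 13.7, 11.5 and 14.0 FPKM at 100 nM and 16.4, 13.0 and 14.2 FPKM at 1000 nM. The values at both doses lay above those in DMSO without overlap, with a change of 0.75 ± 0.18 (adjusted p = 0.017, relative scale 0.91) at 1000 nM and 0.61 ± 0.18 (adjusted p = 0.0512, relative scale 0.77 with adjusted p = 0.0275) at 100 nM. The call at 1000 nM was lost in 4 of 9 fits that each left out 1 library, with adjusted p up to 0.0735. In AMO1 it measured 18.2, 21.2 and 16 FPKM in DMSO, 9.90, 11 and 10.6 FPKM at 100 nM and 6.73, 4.94 and 6.75 FPKM at 1000 nM. Those values did not overlap between doses, and the change was −1.45 ± 0.19 (adjusted p = 2.3e-05, relative scale −0.57) at 1000 nM. The last exon of OGG1 overlaps CAMK1 on the other strand, which averaged 7.64 FPKM at 1000 nM and 7.44 FPKM in DMSO in XG1 (log2 change −0.036, adjusted p = 0.957) and 0.188 and 0.744 FPKM in AMO1, where it was under the filter.

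NTHL1, for oxidised pyrimidines, fell in both lines. It had 42.5, 32.2 and 31.9 FPKM at 1000 nM, against 82.3, 65.4 and 93.3 FPKM in DMSO in the XG1 libraries. In AMO1 NTHL1 had 23.6, 18.7 and 28.8 FPKM at 1000 nM, against 93.0, 92.9 and 90.6 FPKM in DMSO. Neither pair of groups overlapped, and the changes of NTHL1 were −1.15 ± 0.18 (adjusted p = 0.00202, relative scale −0.97) in XG1 and −1.94 ± 0.20 (adjusted p = 3.22e-06, relative scale −0.99) in AMO1. NEIL3, a glycosylase for oxidised bases that also acts at crosslinks, fell in both lines as well. In XG1 it had 1.48, 2.85 and 2.80 FPKM at 1000 nM, against 4.90, 5.81 and 10.5 FPKM in DMSO, with a change of −1.22 ± 0.29 (adjusted p = 0.015, relative scale −1.07). In AMO1 it had 0.332, 0.233 and 0.516 FPKM at 1000 nM, against 2.85, 3.44 and 3.74 FPKM in DMSO, with a change of −1.67 ± 0.21 (adjusted p = 1.3e-05, relative scale −1.19). The groups did not overlap in either line. All 3 AMO1 libraries at 1000 nM were under 1 FPKM, where the log2(FPKM + 1) scale understates a change. In AMO1 NEIL3 passed the filter only with its DMSO libraries, which favours a fall. The XG1 call was lost without DMSO replicate 3 or without 1000 nM replicate 1, with adjusted p up to 0.0648.

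SMUG1 also removes uracil. In XG1 it had 49.3, 49.7 and 57.9 FPKM at 1000 nM, against 73.9, 62.4 and 74.3 FPKM in DMSO, below DMSO without overlap but with a change of −0.42 ± 0.17 (adjusted p = 0.123, relative scale −0.24), and it was called at 100 nM (−0.69 ± 0.17, adjusted p = 0.025, relative scale −0.50 with adjusted p = 0.141). In AMO1 it had 14.4, 6.67 and 22.0 FPKM at 1000 nM, against 36.9, 38.0 and 27.8 FPKM in DMSO, where replicate 2 was lowest and the change was −1.32 ± 0.32 (adjusted p = 0.00211, relative scale −0.40 with adjusted p = 0.178). MBD4 removes thymine mispaired at methylated CpG sites. In XG1 MBD4 had 74.6, 62.9 and 78.0 FPKM at 1000 nM, against 57.1, 61.0 and 72.1 FPKM in DMSO, with overlapping groups and a change of 0.18 ± 0.16 (adjusted p = 0.492, relative scale 0.36). In AMO1 it had 33.2, 18.8 and 26.3 FPKM at 1000 nM, against 56.3, 61.4 and 53.1 FPKM in DMSO, below DMSO without overlap (−1.13 ± 0.22, adjusted p = 0.000416, relative scale −0.18 with adjusted p = 0.155). NEIL1, another glycosylase for oxidised bases, had 17.8, 16.2 and 12.7 FPKM at 1000 nM, against 7.0, 11.5 and 16 FPKM in DMSO in XG1 with a change of 0.46 ± 0.31 (adjusted p = 0.349, relative scale 0.63), while no AMO1 library exceeded 0.483 FPKM.

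The remaining glycosylases are given more briefly. TDG, which acts on thymine in G·T mispairs and on oxidised methylcytosine, was called lower in both lines at 1000 nM, with changes of −0.64 ± 0.17 (adjusted p = 0.0254, relative scale −0.47) in XG1 and −1.29 ± 0.24 (adjusted p = 0.00031, relative scale −0.39) in AMO1. The XG1 call of TDG was lost in 6 of 9 fits that left out 1 library, with adjusted p up to 0.107. MUTYH, which removes adenine paired with oxidised guanine, was not called in XG1 (−0.27 ± 0.19, adjusted p = 0.378, relative scale −0.11) and was called lower in AMO1 (−0.92 ± 0.21, adjusted p = 0.00147, relative scale −0.12 with adjusted p = 0.671). NEIL2 was called in AMO1 (−0.69 ± 0.24, adjusted p = 0.0202, relative scale 0.21 with adjusted p = 0.321), turned positive on the relative scale and lost its call without DMSO replicate 2 or without 1000 nM replicate 2, with adjusted p up to 0.102.

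Downstream of the glycosylases, APEX1, the main endonuclease for sites without a base, had a change of −0.72 ± 0.24 (adjusted p = 0.0631, relative scale −0.54) in XG1 and −1.51 ± 0.28 (adjusted p = 0.000359, relative scale −0.58) in AMO1 at 1000 nM. In XG1 it was called at 100 nM (−1.20 ± 0.24, adjusted p = 0.00983, relative scale −1.02). APEX2, a related nuclease, had 16.4, 12.7 and 13.2 FPKM at 1000 nM, against 15.8, 20.6 and 16.7 FPKM in DMSO in the XG1 libraries. In AMO1 APEX2 had 4.52, 2.96 and 5.02 FPKM at 1000 nM, against 15.7, 15.1 and 15.6 FPKM in DMSO. The XG1 groups overlapped and the AMO1 groups did not, with changes of −0.30 ± 0.17 (adjusted p = 0.252, relative scale −0.13) in XG1 and −1.70 ± 0.20 (adjusted p = 7.75e-06, relative scale −0.85) in AMO1. POLB, the gap-filling polymerase, had 71.8, 61.0 and 67.4 FPKM at 1000 nM, against 58.7, 62.1 and 72.7 FPKM in DMSO in the XG1 libraries. In AMO1 POLB had 26.8, 15.1 and 24.1 FPKM at 1000 nM, against 40.1, 53.9 and 39.7 FPKM in DMSO. The XG1 groups overlapped with no call (0.051 ± 0.14, adjusted p = 0.842, relative scale 0.23), and POLB fell in AMO1 (−1.01 ± 0.23, adjusted p = 0.00148, relative scale −0.072 with adjusted p = 0.566). The last exons of APEX1 and APEX2 overlap other genes on the other strand: PIP4P1, for which no value was used, and ALAS2, at 3.80 FPKM in XG1 at 1000 nM and 4.54 FPKM in DMSO.

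LIG3, the ligase that seals the nick, had 18.5, 18 and 14.8 FPKM at 1000 nM, against 22.2, 21.7 and 28.2 FPKM in DMSO in the XG1 libraries. In AMO1 LIG3 had 8.56, 4.66 and 7.75 FPKM at 1000 nM, against 17.3, 20.7 and 18.1 FPKM in DMSO. Treated values lay below DMSO in both lines, with changes of −0.47 ± 0.19 (adjusted p = 0.127, relative scale −0.29) in XG1 and −1.33 ± 0.21 (adjusted p = 0.000109, relative scale −0.45) in AMO1. The last exon of LIG3 overlaps RFFL, which stayed under 1 FPKM on average in every group. XRCC1, the scaffold that holds LIG3, was at 2.05 to 6.45 FPKM in XG1 and 0.496 to 1.59 FPKM in AMO1 and was not called at either dose in either line. APTX, which clears failed ligations, had 41.0, 41.0 and 44.4 FPKM at 1000 nM, against 39.5, 39.8 and 40.4 FPKM in DMSO in the XG1 libraries. In AMO1 APTX had 21.0, 14.7 and 22.0 FPKM at 1000 nM, against 53.2, 58.3 and 46.8 FPKM in DMSO. The XG1 values at 1000 nM lay just above DMSO with a change of 0.077 ± 0.14 (adjusted p = 0.762, relative scale 0.26), while APTX fell in AMO1 (−1.42 ± 0.20, adjusted p = 4.59e-05, relative scale −0.48).

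PARP1, the main sensor of open strand breaks, had 119, 121 and 81.1 FPKM at 1000 nM, against 162, 152 and 179 FPKM in DMSO in the XG1 libraries. In AMO1 PARP1 had 14.7, 7.71 and 11.4 FPKM at 1000 nM, against 34.2, 38.6 and 34.3 FPKM in DMSO. Neither pair of groups overlapped, with changes of −0.64 ± 0.20 (adjusted p = 0.0495, relative scale −0.45 with adjusted p = 0.184) in XG1 and −1.62 ± 0.22 (adjusted p = 2.68e-05, relative scale −0.70) in AMO1. The XG1 call was lost in 7 of 9 fits that left out 1 library, with adjusted p up to 0.181. PARP2, its relative, had 6.69, 7.29 and 7.66 FPKM at 1000 nM, against 19.6, 19.7 and 19.4 FPKM in DMSO in the XG1 libraries. In AMO1 PARP2 had 2.98, 1.91 and 2.14 FPKM at 1000 nM, against 8.45, 9.81 and 7.55 FPKM in DMSO. It fell in both lines, with changes at 1000 nM of −1.32 ± 0.23 (adjusted p = 0.00315, relative scale −1.15) in XG1 and −1.53 ± 0.19 (adjusted p = 1.3e-05, relative scale −0.75) in AMO1. At 100 nM the changes were −1.17 ± 0.23 (adjusted p = 0.00909, relative scale −1.0) in XG1 and −0.90 ± 0.19 (adjusted p = 0.00319, relative scale −0.51) in AMO1.

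In end joining, both Ku subunits fell in both lines. XRCC5, the larger subunit, had 76.3, 86.7 and 74.0 FPKM at 1000 nM, against 129, 126 and 139 FPKM in DMSO in the XG1 libraries. In AMO1 XRCC5 had 71.9, 46.1 and 79.5 FPKM at 1000 nM, against 185, 202 and 201 FPKM in DMSO. It changed by −0.73 ± 0.15 (adjusted p = 0.00904, relative scale −0.54) in XG1 and −1.60 ± 0.22 (adjusted p = 3.27e-05, relative scale −0.64) in AMO1. XRCC6, the smaller subunit, had 99.0, 84.4 and 84.2 FPKM at 1000 nM, against 141, 135 and 144 FPKM in DMSO in the XG1 libraries. In AMO1 XRCC6 had 28.6, 19.2 and 29.3 FPKM at 1000 nM, against 75.4, 91.2 and 94.9 FPKM in DMSO. Its changes were −0.65 ± 0.12 (adjusted p = 0.00342, relative scale −0.47) in XG1 and −1.74 ± 0.22 (adjusted p = 1.32e-05, relative scale −0.79) in AMO1. For both subunits, no library at 1000 nM reached a DMSO library of its line.

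PRKDC, the kinase that Ku brings to the break, had 11.7, 10.4 and 9.06 FPKM at 1000 nM, against 21.7, 16.5 and 20.6 FPKM in DMSO in the XG1 libraries. In AMO1 PRKDC had 2.48, 1.51 and 1.91 FPKM at 1000 nM, against 11.1, 12.2 and 10.1 FPKM in DMSO. It fell in both without overlap, with changes of −0.85 ± 0.19 (adjusted p = 0.0103, relative scale −0.68) in XG1 and −2.04 ± 0.19 (adjusted p = 8.91e-07, relative scale −1.27) in AMO1. Without XG1 DMSO replicate 1 the XG1 value missed the threshold (adjusted p = 0.0512). DCLRE1C, the Artemis nuclease that trims the ends, was not called in XG1 (0.048 ± 0.32, adjusted p = 0.941, relative scale 0.17) and was called lower in AMO1 (−0.74 ± 0.19, adjusted p = 0.00409, relative scale −0.12 with adjusted p = 0.656). Its last exon overlaps SUV39H2 on the other strand, which averaged 6.01 FPKM at 1000 nM and 10.5 FPKM in DMSO in XG1, and 0.661 and 4.60 FPKM in AMO1. POLL, a gap-filling polymerase of end joining, was not called in XG1 (−0.44 ± 0.18, adjusted p = 0.121, relative scale −0.26) and was called lower in AMO1 (−0.89 ± 0.20, adjusted p = 0.00115, relative scale 0.002 with adjusted p = 0.994), a direction that did not hold on the relative scale.

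XRCC4, the scaffold that holds ligase IV, had the largest fall of the repair genes in XG1. It measured 11.9, 16.3 and 18.1 FPKM in DMSO, 5.49, 5.30 and 4.99 FPKM at 100 nM and 5.32, 2.88 and 3.35 FPKM at 1000 nM there. All 6 treated libraries lay below all 3 DMSO libraries, and the change was −1.37 ± 0.23 (adjusted p = 0.00503, relative scale −1.20) at 100 nM and −1.77 ± 0.23 (adjusted p = 0.00071, relative scale −1.61) at 1000 nM. In AMO1 XRCC4 had 6.78, 7.68 and 8.88 FPKM in DMSO, 3.70, 4.97 and 7.19 FPKM at 100 nM and 4.08, 4.45 and 3.92 FPKM at 1000 nM. The change at 1000 nM was −0.76 ± 0.21 (adjusted p = 0.00588, relative scale 0.067 with adjusted p = 0.828), and its direction turned on the relative scale. LIG4, the ligase itself, was chosen for description after its values were seen. In XG1 LIG4 had 3.99, 3.18 and 5.78 FPKM in DMSO, 2.02, 2.73 and 1.77 FPKM at 100 nM and 5.16, 5.08 and 3.55 FPKM at 1000 nM, lower at 100 nM than in DMSO but not at 1000 nM, with changes of −0.73 ± 0.25 (adjusted p = 0.0802, relative scale −0.58) and 0.089 ± 0.25 (adjusted p = 0.85, relative scale 0.24). In AMO1 it had 1.52, 1.80 and 1.68 FPKM in DMSO, 1.71, 2.27 and 1.68 FPKM at 100 nM and 1.37, 1.03 and 1.55 FPKM at 1000 nM, with a change of −0.21 ± 0.18 (adjusted p = 0.308, relative scale 0.37 with adjusted p = 0.0373) at 1000 nM, so that it was called higher on the relative scale only.

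NHEJ1, also known as XLF, which lines up with XRCC4, had a change of −0.60 ± 0.36 (adjusted p = 0.297, relative scale −0.46) in XG1 and −1.58 ± 0.18 (adjusted p = 5.23e-06, relative scale −0.95) in AMO1. In AMO1 NHEJ1 had 0.874, 0.874 and 0.543 FPKM at 1000 nM, against 3.84, 4.37 and 4.54 FPKM in DMSO. It passed the filter there through its DMSO and 100 nM libraries, with none at 1000 nM at 1 FPKM. POLQ, the polymerase of microhomology joining, had 0.687, 0.862 and 0.673 FPKM at 1000 nM, against 2.14, 1.78 and 2.29 FPKM in DMSO in the XG1 libraries. In AMO1 POLQ had 0.111, 0.291 and 0.260 FPKM at 1000 nM, against 1.89, 2.77 and 1.91 FPKM in DMSO. Neither pair of groups overlapped. It was called in XG1 (−0.82 ± 0.24, adjusted p = 0.039, relative scale −0.70), where the call was lost in 6 of 9 fits that left out 1 library, with adjusted p up to 0.125. In XG1 POLQ needed its DMSO libraries to pass the filter, which favours a fall. In AMO1, where the filter admitted it through DMSO alone, the change was −1.38 ± 0.18 (adjusted p = 1.77e-05, relative scale −0.95).

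Ratios of partner genes within a library do not depend on the scaling of that library. The 4 pairs were chosen after the values were seen, and no test was made on them. In XG1 the log2 ratio of MSH6 over MSH3 was 2.30, 2.20 and 2.91 in DMSO, 2.64, 1.80 and 2.74 at 100 nM and 2.45, 2.12 and 1.85 at 1000 nM, with overlapping groups. In AMO1 it was 3.23, 2.67 and 2.99 in DMSO, 1.61, 1.23 and 1.2 at 100 nM and 0.20, −0.10 and 0.70 at 1000 nM. The AMO1 groups did not overlap. At 1000 nM the mean differed from that in DMSO by −0.34 in XG1 and by −2.70 in AMO1. For XRCC4 over LIG4 in XG1 it was 1.57, 2.35 and 1.65 in DMSO, 1.44, 0.96 and 1.5 at 100 nM and 0.043, −0.82 and −0.084 at 1000 nM, a mean difference from DMSO of −0.56 at 100 nM and −2.15 at 1000 nM. In AMO1 the mean differences were −0.77 at 100 nM and −0.54 at 1000 nM, and the groups at both doses overlapped DMSO. The ratio of the Ku subunits, XRCC5 over XRCC6, stayed within −0.46 to 0.06 in all 9 XG1 libraries and within 1.09 to 1.44 in all 9 AMO1 libraries. PARP1 over PARP2 differed by 0.80 at 1000 nM from DMSO in XG1, without overlap, and by 0.18 in AMO1, where the groups overlapped. A shift of such a ratio describes an unequal change of the 2 genes of a pair and not which of them changed.

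**Figure D3:**
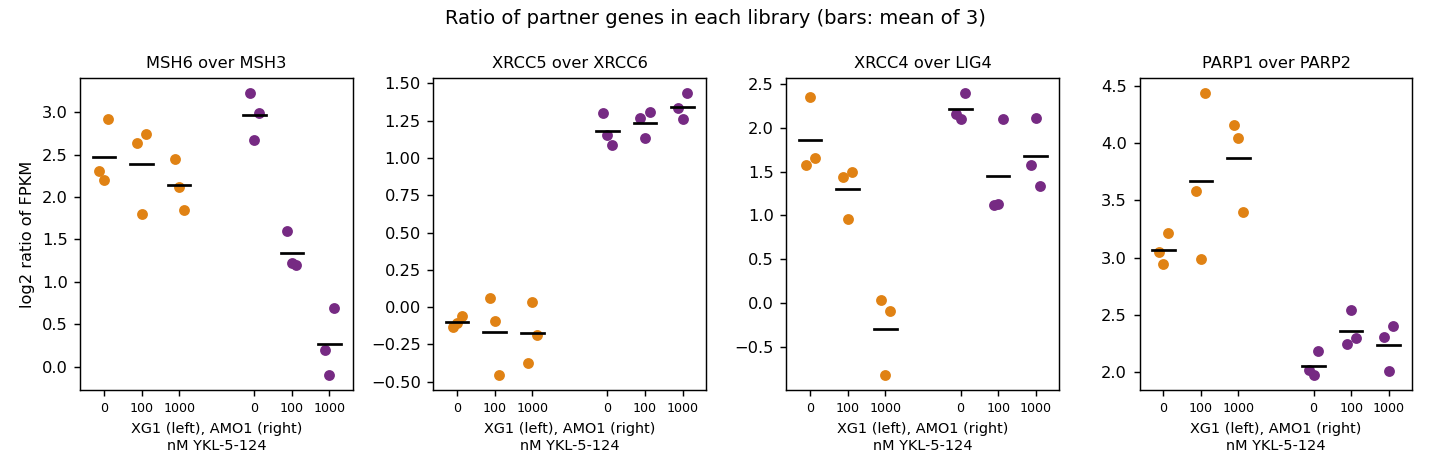
Log2 ratio of the FPKM of 2 partner genes (vertical axes) in each library (points) by dose in nM (horizontal axes, 0 is DMSO), XG1 left and AMO1 right, with bars for the mean of 3. MSH6 over MSH3 goes down with dose in AMO1 and XRCC4 over LIG4 is below all other XG1 libraries at 1000 nM, while XRCC5 over XRCC6 keeps to 1 range in each line.

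The difference between the lines in response was tested as XG1 minus AMO1, so that a positive value means a smaller fall or a rise in XG1. At 1000 nM it passed for 14 of the 32 genes, 13 of them positive and 1, XRCC4, negative, where 32.8% of all genes were called positive and 1.5% negative. Relative to the median gene, 7 were positive and 1 negative, where 10.1% and 6.81% of all genes were called. The largest were MSH6 (2.36 ± 0.29, adjusted p = 3.12e-05, relative scale 1.85) and OGG1 (2.20 ± 0.23, adjusted p = 7.74e-06, relative scale 1.49). They were followed by APTX (1.5 ± 0.22, adjusted p = 0.000158, relative scale 0.77), UNG (1.46 ± 0.31, adjusted p = 0.002, relative scale 0.83), APEX2 (1.39 ± 0.24, adjusted p = 0.000448, relative scale 0.77) and MBD4 (1.31 ± 0.26, adjusted p = 0.00131, relative scale 0.58). XRCC4 differed the other way (−1.01 ± 0.31, adjusted p = 0.0182, relative scale −1.58). PRKDC differed by 1.19 ± 0.24 (adjusted p = 0.0016, relative scale 0.70), XRCC6 by 1.09 ± 0.22 (adjusted p = 0.00184, relative scale 0.36 with adjusted p = 0.121) and XRCC5 by 0.87 ± 0.26 (adjusted p = 0.0166, relative scale 0.13 with adjusted p = 0.569), and the differences of both Ku genes were not called on the relative scale. POLB (1.06 ± 0.26, adjusted p = 0.00545, relative scale 0.34 with adjusted p = 0.124), PARP1 (0.98 ± 0.30, adjusted p = 0.0188, relative scale 0.29 with adjusted p = 0.504), LIG3 (0.87 ± 0.28, adjusted p = 0.0251, relative scale 0.21 with adjusted p = 0.473) and NTHL1 (0.78 ± 0.26, adjusted p = 0.0279, relative scale 0.061 with adjusted p = 0.884) completed the 14. The call of LIG3 was lost in 6 of 18 fits that left out 1 library and that of NTHL1 in 4. By route the called differences were 1 of 5 in mismatch repair, 9 of 18 in base excision repair and 4 of 9 in end joining. The median difference at 1000 nM was 0.79 over the repair genes and 0.55 over all genes. At 100 nM MSH6 (1.34 ± 0.29, adjusted p = 0.0103, relative scale 1.15) and OGG1 (1.36 ± 0.23, adjusted p = 0.00184, relative scale 1.10) passed, where 5.37% of all genes were called positive and 0.86% negative. On the relative scale 3 were positive (MSH6, OGG1 and PRKDC) and 1, LIG4, negative, where 6.28% and 3.26% of all genes were called. The count on the deposited scale was 7 without AMO1 1000 nM replicate 2, a library that enters it only through the shared estimate of the spread.

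**Figure D4:**
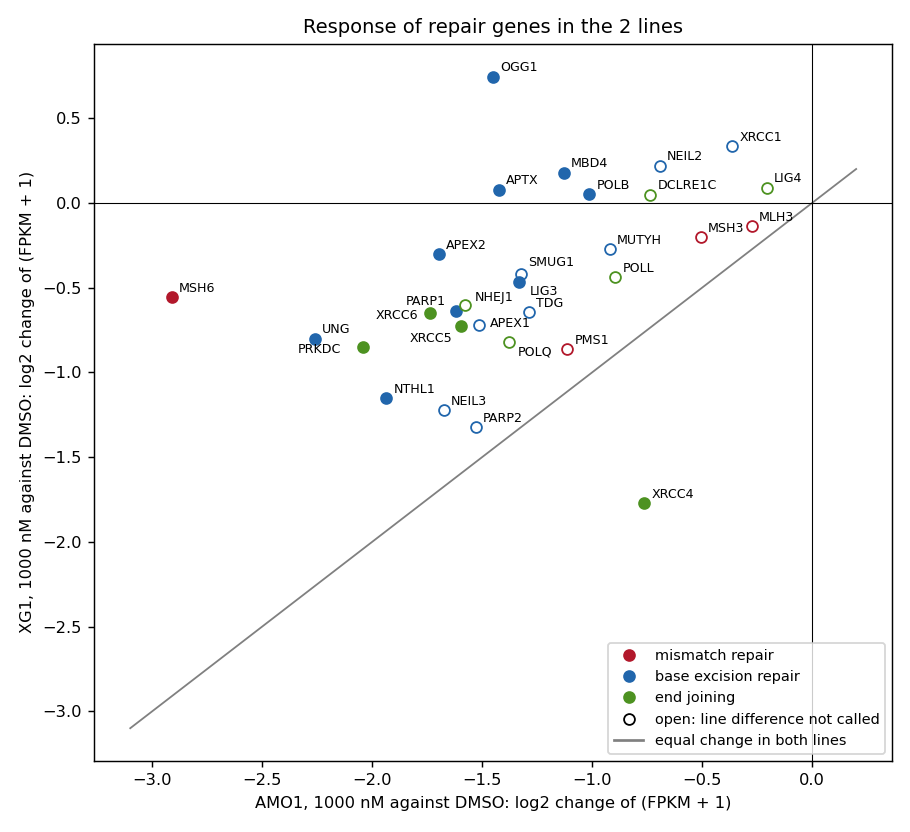
Log2 change of (FPKM + 1) at 1000 nM against DMSO in XG1 (vertical axis) and AMO1 (horizontal axis) for the 30 repair genes tested in both lines, coloured by route, with filled points where the difference between the lines passed and a grey line of equal change. XRCC4 is the 1 gene below the line of equal change, and OGG1 is the filled point highest above 0, at 0.75 in XG1 and −1.45 in AMO1.

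In DMSO the lines differed for 21 of the 32 genes. XG1 was higher for 18 and lower for 3, with a median difference of 0.55 over the repair genes and 0.42 over all genes, where 45% of all genes were called higher and 19.8% lower. On the relative scale 6 were higher and 8 lower, where 32.3% and 33.5% of all genes were called. NEIL1 differed most, with 7.0, 11.5 and 16 FPKM in XG1 and 0.144, 0.366 and 0.174 FPKM in AMO1, and it entered the test only through XG1 (3.28 ± 0.26, adjusted p = 6.7e-09, relative scale 2.78). The last exon of NEIL1 overlaps MAN2C1 on the other strand, which averaged 12.6 FPKM in XG1 and 2.92 FPKM in AMO1 in DMSO. PARP1 had 162, 152 and 179 FPKM in XG1 and 34.2, 38.6 and 34.3 FPKM in AMO1, a difference of 2.17 ± 0.21 (adjusted p = 1.12e-07, relative scale 1.65). PARP2 and PMS1 were also higher in XG1, by 1.10 ± 0.20 (adjusted p = 0.000135, relative scale 0.61) and 1.09 ± 0.26 (adjusted p = 0.00133, relative scale 0.60), and so was SMUG1 (1.02 ± 0.28, adjusted p = 0.00452, relative scale 0.51 with adjusted p = 0.0802).

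OGG1 was lower in XG1, with 9.83, 8.01 and 7.07 FPKM there and 18.2, 21.2 and 16 FPKM in AMO1 (−1.07 ± 0.16, adjusted p = 2.1e-05, relative scale −1.52). XRCC5 (−0.58 ± 0.18, adjusted p = 0.0108, relative scale −1.10) and APTX (−0.39 ± 0.16, adjusted p = 0.0387, relative scale −0.90) were lower in XG1 as well. MSH6 was called higher in XG1 on the deposited scale and was level on the relative scale (0.49 ± 0.20, adjusted p = 0.044, relative scale −0.017 with adjusted p = 0.93). That MSH6 call was lost in 10 of 18 fits that left out 1 library, with adjusted p up to 0.169, and with log2(FPKM + 0.1) (adjusted p = 0.0927). The APTX call in DMSO was lost in 5 of 18, with adjusted p up to 0.135. With the replicate number as a block neither was called (adjusted p = 0.0611 for MSH6 and 0.0822 for APTX). At 1000 nM OGG1 measured 16.4, 13.0 and 14.2 FPKM in XG1 and 6.73, 4.94 and 6.75 FPKM in AMO1, the reverse order of that in DMSO.

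**Figure D5:**
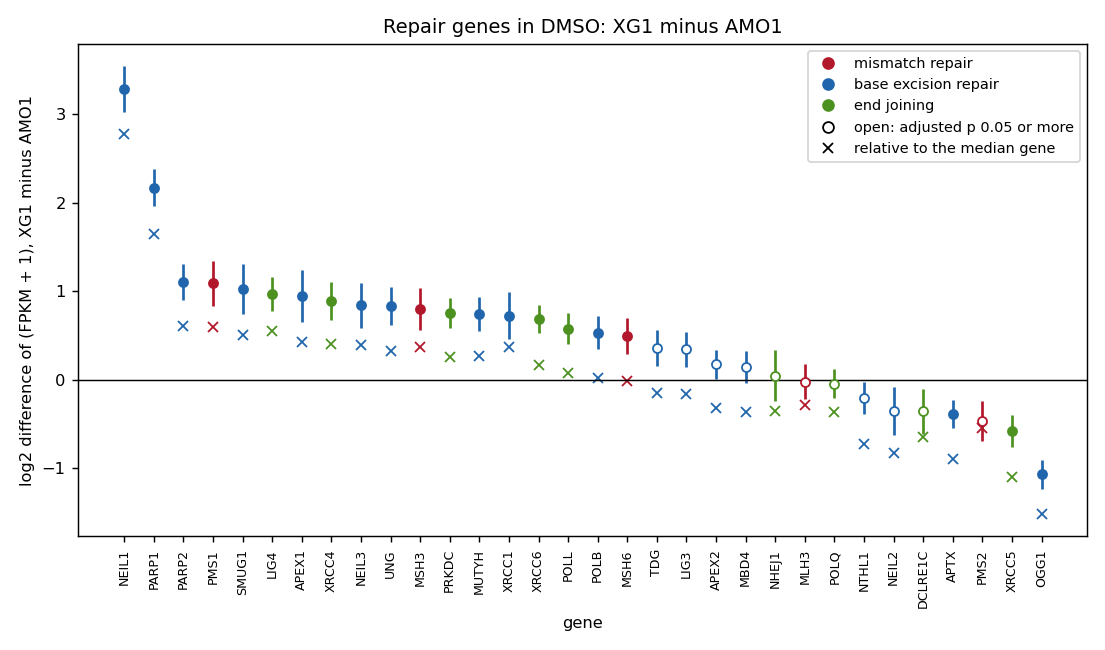
Log2 difference of (FPKM + 1) between the lines in DMSO, XG1 minus AMO1 (vertical axis, circles ± SE), for the 32 repair genes in order of size (horizontal axis), with crosses for the same difference relative to the median gene. NEIL1 and PARP1 are highest at 3.28 and 2.17, OGG1 is lowest at −1.07, and the crosses lie below the circles.

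Between the doses, 12 of 31 genes were lower at 1000 nM than at 100 nM in AMO1 and none was higher, where 23.4% of all genes were called lower and 0.209% higher. They were MSH6, 7 genes of base excision repair and 4 of end joining. NTHL1 (−1.18 ± 0.20, adjusted p = 0.00405, relative scale −0.66), MSH6 (−1.08 ± 0.23, adjusted p = 0.0108, relative scale −0.71) and APEX2 (−1.05 ± 0.20, adjusted p = 0.00606, relative scale −0.61) were the 3 also called on the relative scale, where 4.18% of all genes were called lower and 1.67% higher. The count was 4 without 100 nM replicate 1 or 2 and 3 without 100 nM replicate 3. In XG1 limma called none of the 31 between the doses, where 0.322% of all genes were called lower and 0.0677% higher. At an unadjusted p under 0.05, which 10.6% of all genes met, it gave 2, XRCC6 lower and LIG4 higher (0.82 ± 0.25, adjusted p = 0.261, relative scale 0.82). APEX1 was called in XG1 at 100 nM and not at 1000 nM, with no call between those doses (0.48 ± 0.24, adjusted p = 0.514, relative scale 0.47).

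Other genes of the routes were taken from lists written from general knowledge. The other mismatch repair genes were the resynthesis machinery (the clamp, its loader, polymerase delta, single-strand binding proteins), HMGB1 and EXO1. In XG1 at 1000 nM, 8 of these 15 were lower, as were 3 of 11 other base excision genes tested and 3 of 13 other end-joining genes, where 13.2% of all genes were called lower. The largest falls were those of the clamp loader gene RFC3 (log2 −1.30), of PCNA, the sliding clamp (−1.30), and of NBN, a break sensor (−1.06). In AMO1, 14 of the 15 were lower and 1, POLD4, higher, and 8 of 12 and 9 of 14 were lower in the other lists, where 65.7% of all genes were called lower, so that the counts of these 2 lists were near the background. PCNA (−3.70), RFC3 (−3.32) and RFC4 (−3.23) fell most there. After size-factor scaling 9 of 15, 2 of 11 and 3 of 13 were lower in XG1, with 1, 0 and 1 higher, where 10.2% of all genes were called lower and 9.41% higher. In AMO1 13 of 15, 6 of 12 and 5 of 14 were then lower, with 1, 3 and 4 higher, where 24.5% and 23.5% of all genes were called. Some genes stand in 2 of these lists.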

How the data were processed

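Per the submitters' processing notes, the authors aligned reads with HISAT2 to hg19 and made gene values with Cuffnorm. Their versions: not given in the sources used here. Deposited FPKM cover 26341 entries per library, 26249 genes and 92 ERCC spike-ins. Group means of the summed spike-ins ran from 171365 to 184681 FPKM, which points to a scaling by spike-in that no note describes. Lowest values stood at a floor of 0.0711 to 0.158 FPKM per library. The sources used here give no read depth, so the FPKM carry no counting error, and precision was taken from the replicates.

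From these values, log2(FPKM + 1) was fitted with limma 3.58.1 (R 4.3.3, mean-dependent prior variance, two-sided moderated tests), for genes that reached 1 FPKM in 3 or more of the libraries fitted. Each line's 9 libraries gave the dose comparisons, and all 18 libraries gave XG1 minus AMO1 in DMSO and the difference between the lines in response. Adjusted p-values (Benjamini-Hochberg over all genes of the fit) under 0.05 were called. The relative scale divides each library by its median-ratio size factor. The scripts were tested on simulated data. Tables and figures were made with Python 3.11.15, pandas 2.3.3, numpy 2.4.6, scipy 1.17.1 and matplotlib 3.10.9.

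Values in every library are given for genes called in a line and among its 8 largest changes at 1000 nM, genes whose response differed between the lines, genes that rose, and the 6 largest differences in DMSO. MSH3 and LIG4 were added after their values were seen. The members, the routes and the lists were chosen with earlier results of these data known. Alternatives were the relative scale, log2(FPKM + 0.1), no filter, a filter of 5 FPKM, a constant prior variance, the replicate number as a block and leaving out each library. Overlaps of last exons were taken by name from GENCODE v29 and promoters from RefSeq, both on GRCh38, so no hg19 coordinates are given.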

Additional observations from a re-analysis of the deposited data

Results flagged for a closer look

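The change from DMSO differed between the lines in a test of the difference itself (XG1 minus AMO1, limma over all 18 libraries, adjusted p under 0.05) for 14 repair genes at 1000 nM and 2 at 100 nM. At 1000 nM the log2 differences in mismatch repair and base excision repair were 2.36 for MSH6, 2.20 for OGG1, 1.5 for APTX, 1.46 for UNG, 1.39 for APEX2, 1.31 for MBD4, 1.06 for POLB, 0.98 for PARP1, 0.87 for LIG3 and 0.78 for NTHL1. In end joining they were 1.19 for PRKDC, 1.09 for XRCC6, 0.87 for XRCC5 and −1.01 for XRCC4. At 100 nM they were 1.34 for MSH6 and 1.36 for OGG1. There 5.37% of all genes were called positive and 0.86% negative, so that the count of 2 among 32 was near the background.

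The median gene differed by 0.55 in the same direction at 1000 nM, and 32.8% of all genes were called positive there. After division by size factors the differences of POLB, PARP1, LIG3, NTHL1, XRCC6 and XRCC5 were not called. The libraries labelled XG1 also had low plasma cell markers (91.3 to 144 FPKM in sum, against 8206 to 9217 FPKM in AMO1, in DMSO), and whether that bears on these differences was not tested.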

How the results depend on the processing

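On the relative scale the number of repair genes called was 11 at 100 nM in AMO1, 3 between the doses in AMO1, 8 for the difference between the lines at 1000 nM and 4 at 100 nM. Of the calls made before this scaling, 4 reversed direction. They were NEIL2 (0.21), XRCC4 (0.067) and POLL (0.0020) in AMO1 at 1000 nM, and MSH6 (−0.017) between the lines in DMSO. Genes not called before the scaling also reversed. For AMO1 and 1000 nM, all 31 tested genes had a negative change before size-factor scaling and 24 after it. The median of all genes was log2 −0.77 before it and 0.013 after it, and 65.7% and 24.5% of all genes were called lower. The share of all genes with a negative change was not counted. The 31 hold POLQ, whose fall the filter fixed, and NEIL3, XRCC1 and PMS2, which needed DMSO libraries to pass. Without a filter on low values the counts were 13 at 100 nM in AMO1, 2 between the doses in AMO1, 8 at 1000 nM in XG1 and 5 at 100 nM in XG1; this setting adds genes at the floor to every fit. Log2(FPKM + 0.1), the filter of 5 FPKM and a constant prior variance kept every count of called genes within 1.5 times.

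Leaving out each library in turn gave 7 to 15 at 1000 nM in XG1, 4 to 12 at 100 nM in XG1 and 0 to 0 between the doses in XG1. In AMO1 it gave 24 to 27 at 1000 nM, 9 to 23 at 100 nM and 3 to 15 between the doses. For the line contrasts it gave 17 to 22 in DMSO, 12 to 17 for the difference at 1000 nM and 2 to 7 at 100 nM.

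Whether the replicate numbers pair the samples was not settled. Deviations of same-numbered libraries correlated between −0.0441 and 0.157 in XG1 and between −0.178 and 0.125 in AMO1. For libraries of unlike number the range was −0.137 to 0.0932 in XG1 and −0.171 to 0.168 in AMO1. As a hint from the data alone, 8 of 9 XG1 libraries and 1 of 9 AMO1 libraries correlated best with their own number. A pairing in XG1, which the main tests leave out, therefore remains possible. With the replicate number as a block, 7 genes were called between the doses in AMO1, and 11 and 26 at 1000 nM in XG1 and AMO1. In that limma fit the XG1 calls of MSH6, PARP1 and POLQ at 1000 nM were lost (adjusted p = 0.0611, 0.0561 and 0.0733). The causes of these shifts were not tested.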
